A study of Arabidopsis thaliana with 16 samples.

Results

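The comparison described here sets CEI marker cells from wox5 roots beside QC marker cells of the Arabidopsis thaliana root tip, across all 33201 loci of the 33201 in the expression table. It uses 2 of the 4 sorted cell populations of the series, which hold 8 of its 16 samples. The first population, w5C6, consists of the GFP-positive cells of a wox5 mutant that carries the CYCD6;1 reporter pCYCD6:GUS-GFP, a marker of the cortex endodermis initial (CEI). The second, W5S, consists of the GFP-positive cells of the pWOX5:erGFP line, which marks the quiescent centre (QC) and is not described as carrying the wox5 mutation. The values of the other populations stand beside them: C6 is the GFP-positive population of the same CYCD6;1 reporter without the mutation, and W5NS is the GFP-negative population of the WOX5 reporter line. All of them came from root tips of about 1 mm cut from 5-day-old roots, digested to protoplasts and sorted by fluorescence, and each was sampled as 4 libraries that the authors combined into 1 value per locus. Genotype, reporter line and sorted cell type all differ between w5C6 and W5S and cannot be told apart here. As a model of the CEI, w5C6 is also limited by its reporter, which the study describes as spreading into cortex and endodermal cells of wox5 roots.

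The QC is a small group of slowly dividing cells at the centre of the root stem cell niche. It keeps the surrounding initials undifferentiated, and the homeobox transcription factor WOX5, made in the QC, is required for the columella stem cells below it. The CEI lies beside the QC and divides to give the cortex and the endodermis. That division depends on the GRAS transcription factors SHR and SCR, which switch on the D-type cyclin CYCD6;1.

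Levels are given in FPKM, a read count per kilobase of transcript and per unit of sequenced fragments, so levels of different genes are on a scale corrected for length. Differences are given as the log2 ratio of (w5C6 FPKM + 1) to (W5S FPKM + 1), so that a negative ratio marks a gene higher in W5S. Adding 1 FPKM understates the difference of genes at low levels. A locus is called past the fold when the ratio is at least 4-fold in either direction and the higher population has at least 10 FPKM. With 1 combined value per population the spread between its 4 libraries cannot be computed, so no test was made here and no value below carries an error. A signed value in parentheses after the levels of a gene is its log2 ratio. The depth of the libraries is not known from the values.

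The targeted gene was read first. WOX5 was at 206 FPKM in W5S and 42.1 in W5NS, against 18.4 in C6 and 0.0865 in w5C6, a log2 ratio of -7.58. The mutant population therefore had almost no WOX5 signal, while both the C6 cells and the GFP-negative cells of the WOX5 line had some. In cell mixtures such as these, fewer cells of a type and less RNA per cell cannot be told apart. CYCD6;1, whose promoter drives the other reporter, was at 7.01 FPKM in w5C6, 9.75 in C6 and 7.02 in W5NS, against 0.828 in W5S. Its log2 ratio was 2.13, but it was under the level of 10 FPKM used for counting. The level in w5C6 was thus not above that in the GFP-negative cells of the WOX5 line.

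The populations differed in how many loci had any signal. Of the 33201 loci, 3957 were listed at 0 in w5C6, 8239 in W5S, 5849 in C6 and 5560 in W5NS, while the loci at 10 FPKM or more ranged only from 10577 to 11391. A total of 838 loci at 0 in W5S had at least 1 FPKM in w5C6, and 63 loci showed the opposite. Libraries were amplified from small RNA inputs, in which low transcripts can drop out, and the part of this in the counts below was not tested.

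Of the 12529 loci with at least 10 FPKM in w5C6 or W5S, 718 (5.73%) were past the fold toward w5C6 and 211 (1.68%) toward W5S. The remaining 11600 loci (92.6%) were not past it, and 9301 (74.2%) lay within 2-fold. For a gene list, the share past the fold among members at 10 FPKM or more is to be read against these percentages. In a list, 1 or 2 members are single genes rather than a result on the list. The WIP, PLETHORA, SAUR, extensin, flavonoid, chlorophyll synthesis and class III homeodomain lists were among those added after values were seen. The median log2 ratio was 0.11 over these loci and 0.05 over the 9439 loci at 10 FPKM or more in both populations. Among the loci higher in w5C6, the median level was 25.8 FPKM in w5C6 and 11.9 in C6, against 5.49 in W5NS and 2.13 in W5S. Among those higher in W5S, it was 39.2 FPKM in W5S and 21.5 in W5NS, against 8.0 in C6 and 5.06 in w5C6. On the median, taken as a ratio, C6 thus lay closer to w5C6 and W5NS closer to W5S. Single loci were mixed. C6 was within 2-fold of w5C6 for 383 (53.3%) of the 718 and 139 (65.9%) of the 211. It was within 2-fold of W5S for 184 (25.6%) and 34 (16.1%), and at least 4-fold below w5C6 for 177 (24.7%) of the 718. W5NS was within 2-fold of W5S for 375 (52.2%) and 114 (54.0%), and of w5C6 for 71 (9.89%) and 69 (32.7%). These loci were chosen by their w5C6 and W5S values, and the same shares over all 12529 loci were not computed.

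**Figure D1:**
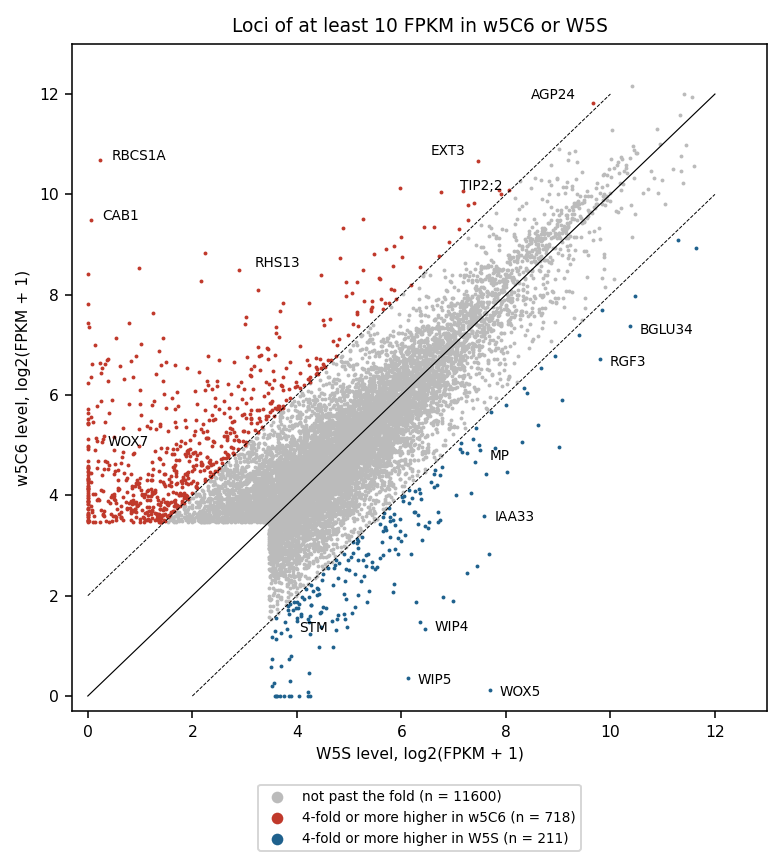
Level of each of the 12529 loci with at least 10 FPKM in w5C6 or W5S, as log2(FPKM + 1), in W5S (horizontal) and in w5C6 (vertical); each point is 1 locus, the solid line marks equal levels and the dashed lines a 4-fold ratio. The 718 loci higher in w5C6 are in red and reach from root hair and wall genes to photosynthesis genes such as RBCS1A at a W5S level near 0, and the 211 loci higher in W5S are in blue, with WOX5 at the lower edge.

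Most QC markers had their higher level in W5S. Of the 15 QC markers listed, 12 reached 10 FPKM, 8 were past the fold toward W5S and 0 toward w5C6, with a median log2 ratio of -2.31 against 0.21 over all loci. Over the list the GFP-negative cells of the WOX5 line lay close to W5S, with a median log2 ratio of W5NS over W5S of -0.14. The list summed to 2038 FPKM in W5S and 1912 in W5NS, against 421 in C6 and 284 in w5C6. RGF3 had the largest part in these sums, at 889 FPKM in W5S and 964 in W5NS. The list holds WIP4, WIP5, NTT, RGF1, RGF2, RGF3, PLT1 and PLT2, which are counted again in the WIP, RGF and PLETHORA lists. WOX5 itself is also counted among the 8. Its reporter defined W5S and the gene is mutated in w5C6, so its direction was fixed in advance. After WOX5, the next 2 places in the order of all loci belonged to WIP zinc finger factors, which are required to start the root in the embryo. WIP5 was at 68.8 FPKM in W5S and 57.0 in W5NS, against 1.12 in C6 and 0.287 in w5C6, a log2 ratio of -5.76. WIP4 was at 86.8 FPKM in W5S and 68.7 in W5NS, against 2.64 in C6 and 1.51 in w5C6, a log2 ratio of -5.13. NTT, the third of the WIP genes that act together in the embryonic root, was at 56.4 FPKM in W5S and 51.5 in W5NS, against 5.56 in C6 and 3.21 in w5C6, a log2 ratio of -3.77. For all 3 genes the level in the GFP-negative cells of the WOX5 line was close to that in W5S, and both CYCD6;1 reporter populations were low. The other WIP genes in the list used here, TT1 and WIP3, were under 1 FPKM in every population. TEL1, an RNA-binding protein of the terminal ear type, was at 71.2 FPKM in W5S and 39.2 in W5NS, against 4.66 in C6 and 6.13 in w5C6, a log2 ratio of -3.34. MYB56, also called BRAVO, which restrains QC divisions, was at 50.8 FPKM in W5S and 17.56 in W5NS, against 11.2 in C6 and 12.3 in w5C6 and was just short of the fold at -1.96. Not every QC marker followed: the MADS-box gene AGL42 was at 20.4 FPKM in W5S and 21.7 in w5C6, and the brassinosteroid receptor gene BRL3 at 9.17 and 9.86 FPKM. TEL2 was listed at 0 in both, and AT5G07310, known as ERF115, was under 1 FPKM in both.

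Peptides and factors that set the size of the meristem divided, with the past-fold genes all higher in W5S. RGF peptides are sulfated signals that sustain PLETHORA proteins along the root tip. Of 9 RGF genes, 6 reached 10 FPKM and 4 of them were past the fold toward W5S. RGF3 had the highest level of these, at 889 FPKM in W5S and 964 in W5NS, against 207 in C6 and 105 in w5C6, a log2 ratio of -3.07. RGF2 was at 259 FPKM in W5S and 358 in W5NS, against 65.1 in C6 and 21.1 in w5C6, a log2 ratio of -3.56. RGF1 was at 70.2 FPKM in W5S and 71.6 in W5NS, against 5.41 in C6 and 13.4 in w5C6, a log2 ratio of -2.31, and RGF8 was at 487 FPKM in W5S and 277 in W5NS, against 104 in C6 and 109 in w5C6, a log2 ratio of -2.15. In each case the pair of populations from the WOX5 reporter line lay above the pair from the CYCD6;1 reporter. The PLETHORA transcription factors, master regulators of the root stem cell niche, had no member past the fold among 7, and the 4 that reached 10 FPKM had a higher level in W5S. PLT1 was at 172 FPKM in W5S and 151 in W5NS, against 45.5 in C6 and 59.7 in w5C6 (log2 ratio -1.51) and PLT2 at 78.4 FPKM in W5S and 71.1 in W5NS, against 30.2 in C6 and 29.9 in w5C6 (-1.36). BBM, a further member, was at 61.6 FPKM in W5S and 55.9 in W5NS, against 16.1 in C6 and 19.2 in w5C6 (-1.63). AIL6, also called PLT3, was at 119 FPKM in W5S and 146 in W5NS, against 56.8 in C6 and 42.1 in w5C6 (-1.48). The RGF and PLETHORA medians were -1.83 and -1.36 over all their members. In these lists, 3 RGF genes and 2 PLETHORA-family genes had a ratio above 0. RGF4 was at 83.6 FPKM in W5S and 49.6 in W5NS, against 85.9 in C6 and 90.07 in w5C6 (0.11), while RGF6, RGF9, AIL7 and ANT were under 3 FPKM in all 4 populations.

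Several genes of auxin synthesis, transport and response had a higher level in W5S. Auxin accumulates at the QC, where local synthesis and PIN efflux carriers maintain it. Of 24 synthesis and transport genes, 17 reached 10 FPKM, 2 were past the fold toward W5S and 0 toward w5C6, with a median of -0.52. TAA1, the aminotransferase that opens auxin synthesis from tryptophan, was at 102 FPKM in W5S and 80.1 in W5NS, against 14.9 in C6 and 17.4 in w5C6 (-2.49). WAG1, a protein kinase that directs the polarity of PIN carriers, was at 256 FPKM in W5S and 46.0 in W5NS, against 81.2 in C6 and 54.5 in w5C6 (-2.21), so that here W5NS lay with w5C6. Other genes of this kind were under the fold. YUC3, the oxygenase of the following step, was at 393 FPKM in W5S and 491 in W5NS, against 116 in C6 and 143 in w5C6 (-1.45). PIN4, an efflux carrier, was at 212 FPKM in W5S and 327 in W5NS, against 78.9 in C6 and 83.9 in w5C6 (-1.32). LAX2, an influx carrier, was at 100.5 FPKM in W5S and 91.0 in W5NS, against 23.5 in C6 and 28.9 in w5C6 (-1.76). ABCB19 and ABCB4, carriers of the ABC type, and AUX1, the main influx carrier of the root tip, differed little, with log2 ratios of 0.17, 0.23 and -0.28.

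Aux/IAA proteins repress auxin response and are degraded when auxin is present. Of 26 Aux/IAA genes, 18 reached 10 FPKM, 3 were past the fold toward W5S and 1 toward w5C6. IAA20, IAA30 and IAA33 belong to the few members that lack the canonical degradation motif. IAA20 was at 152 FPKM in W5S and 172 in W5NS, against 16.1 in C6 and 4.44 in w5C6 (-4.82). IAA33 was at 192 FPKM in W5S and 382 in W5NS, against 30.7 in C6 and 11.1 in w5C6 (-4.0). IAA30 was at 70.3 FPKM in W5S and 79.2 in W5NS, against 11.9 in C6 and 16.1 in w5C6 (-2.06). The GFP-negative cells had the highest level of all 3. The member on the other side was IAA31, at 16.5 FPKM in w5C6 and 15.5 in C6, against 3.17 in W5NS and 0.517 in W5S (3.53), where C6 and w5C6 were nearly equal. MP, the auxin response factor ARF5 that drives formation of the embryonic root, was at 180.2 FPKM in W5S and 117 in W5NS, against 38.1 in C6 and 28.8 in w5C6 (-2.60). Of 23 ARF genes, 10 reached 10 FPKM and MP alone was past the fold. Of 77 SAUR genes, small genes induced by auxin, 23 reached 10 FPKM, with 7 past the fold toward w5C6 and 2 toward W5S. AT3G12955 was the SAUR with the largest W5S level among these, 91.6 FPKM against 10.1 in w5C6.

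Some further developmental factors were past the fold toward W5S; they were not a list of their own. STM, a homeobox gene of the shoot meristem, was at 26.5 FPKM in W5S and 20.19 in W5NS, against 0.894 in C6 and 2.07 in w5C6 (-3.16). LAS, a GRAS gene that acts in axillary meristems, was at 17.8 FPKM in W5S and 7.85 in W5NS, against 0.334 in C6 and 0.376 in w5C6 (-3.77). HB-8, a class III homeodomain-leucine zipper gene of procambium cells, was at 29.9 FPKM in W5S and 32.5 in W5NS, against 5.45 in C6 and 1.61 in w5C6 (-3.57). WOX11, which founds adventitious roots, was at 60.3 FPKM in W5S and 54.0 in W5NS, against 6.09 in C6 and 7.88 in w5C6 (-2.79). In these 4 genes W5NS again lay close to W5S, except LAS, which was lower there. AGO10 and HB17 were chosen after their values were seen. AGO10, an Argonaute that sequesters miR165 and miR166, was at 38.9 FPKM in W5S and 24.5 in W5NS, against 2.50 in C6 and 5.99 in w5C6 (-2.51). HB17, a homeodomain-leucine zipper gene, was at 29.2 FPKM in W5S and 18.04 in W5NS, against 0.193 in C6 and 1.88 in w5C6 (-3.39).

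Further groups on the W5S side belong to the root cap and to starch, which fills the columella cells that sense gravity. Of 8 root cap markers, 7 were found, and all 7 had lower levels in w5C6 than in W5S, 2 of them past the fold. ARL2, a DnaJ-type protein of gravity signalling, was at 33.7 FPKM in W5S and 34.9 in W5NS, against 2.68 in C6 and 4.43 in w5C6 (-2.68). FEZ, a NAC factor that promotes divisions of root cap stem cells, was at 24.9 FPKM in W5S and 52.8 in W5NS, against 4.39 in C6 and 3.60 in w5C6 (-2.49). Just under the fold were the cap maturation factors NAC015 and NAC070, known as BRN1 and BRN2. NAC015 was at 146 FPKM in W5S and 33.3 in W5NS, against 99.7 in C6 and 42.8 in w5C6 (-1.75). NAC070 was at 126 FPKM in W5S and 32.4 in W5NS, against 73.7 in C6 and 36.4 in w5C6 (-1.77), and for both it was W5NS that had the lowest level. The root cap list summed to 696 FPKM in W5S, 237 in w5C6, 919.7 in C6 and 459 in W5NS, with none of its genes at 0, and its part in the other genes higher in W5S was not tested. In the starch list of 23 genes, 18 reached 10 FPKM and only GBSS1 was past the fold, but the median was -0.85. GBSS1, the granule-bound synthase that makes amylose, was at 44.2 FPKM in W5S and 56.3 in W5NS, against 4.30 in C6 and 4.77 in w5C6 (-2.97). ADG1, the small subunit of ADP-glucose pyrophosphorylase, was at 89.3 FPKM in W5S and 58.6 in W5NS, against 66.0 in C6 and 29.8 in w5C6 (-1.55). SEX1, the dikinase that starts starch breakdown, was at 79.2 FPKM in W5S and 76.1 in W5NS, against 26.7 in C6 and 24.95 in w5C6 (-1.63). ADG1 and SEX1 did not reach the fold, and of the 23 genes 4 had a higher level in w5C6.

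Some genes of developmental cell death and of defence were high in W5S and in C6 but not in w5C6. MC9, a metacaspase of dying xylem and root cap cells, was at 219 FPKM in W5S and 58.1 in W5NS, against 179 in C6 and 29.9 in w5C6 (-2.83). RNS3, a ribonuclease of the same programme, was at 78.9 FPKM in W5S and 16.9 in W5NS, against 79.0 in C6 and 9.84 in w5C6 (-2.88). CAN, a calcium-dependent nuclease chosen after its values were seen, was at 336 FPKM in W5S and 71.3 in W5NS, against 212 in C6 and 65.3 in w5C6 (-2.35). The cell death list was also put together after values were seen, and of its 7 members, 5 reached 10 FPKM and 2 were past the fold. BGLU34 and BGLU35 are root myrosinases, which release isothiocyanates from glucosinolates, and near-identical copies make their single values uncertain. BGLU34 was at 1329 FPKM in W5S and 117 in W5NS, against 980.4 in C6 and 165 in w5C6 (-3.01). BGLU35 was at 673 FPKM in W5S and 86.7 in W5NS, against 746 in C6 and 145 in w5C6 (-2.21). MLP-300B, a myrosinase-binding protein, was at 916 FPKM in W5S and 256 in W5NS, against 759.6 in C6 and 207 in w5C6 (-2.14). In the whole glucosinolate list of 22 genes, 11 reached 10 FPKM and those 2 myrosinases alone were past the fold. Its median was 0.19 over all members and -0.61 over the 11, so its sign depended on the minimum level. The 3 highest W5S levels of all loci past the fold were those of AT5G60530, AT1G50060 and AGP30. AT5G60530, a late embryogenesis abundant-related protein, was at 3179 FPKM in W5S and 676 in W5NS, against 1718 in C6 and 488 in w5C6 (-2.70). AT1G50060, a protein of the CAP family, was at 2493 FPKM in W5S and 919 in W5NS, against 2959.6 in C6 and 541 in w5C6 (-2.20). AGP30, an arabinogalactan protein, was at 1409 FPKM in W5S and 509 in W5NS, against 617 in C6 and 249 in w5C6 (-2.50). These again had C6 above w5C6.

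Other loci with large ratios toward W5S had no such neighbour in C6. AT5G53380, a wax ester synthase-like acyltransferase, was at 125 FPKM in W5S and 5.81 in W5NS, against 5.13 in C6 and 2.71 in w5C6 (-5.09), so that only W5S was high. AT1G59740, a transporter of the major facilitator superfamily, was at 205 FPKM in W5S and 32.9 in W5NS, against 1.53 in C6 and 6.07 in w5C6 (-4.86). AT4G38410, a dehydrin, was at 514 FPKM in W5S and 434 in W5NS, against 50.1 in C6 and 30.2 in w5C6 (-4.05), with the pair of WOX5-line populations high. Of 92 late embryogenesis and dehydrin genes, 38 reached 10 FPKM, 6 of them past the fold toward W5S and 3 toward w5C6. Of 53 genes for prenyl chains and terpenoids, 12 reached 10 FPKM, and 6 of these were past the fold toward W5S and 0 toward w5C6, among them AT5G58784, an undecaprenyl pyrophosphate synthetase family member at 326 FPKM in W5S and 24.1 in W5NS, against 57.1 in C6 and 69.8 in w5C6 (-2.21). Both lists were drawn up after values were seen.

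**Figure D2:**
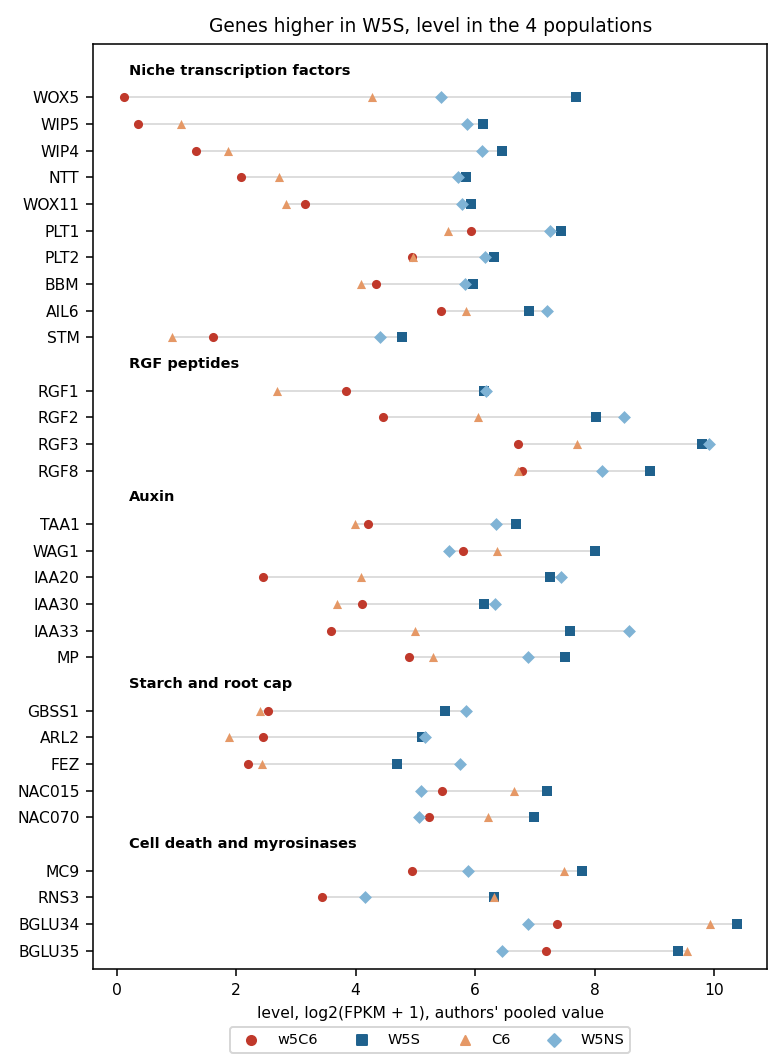
Level of 29 genes discussed as higher in W5S, as log2(FPKM + 1) of the authors' combined value, in w5C6 (red circles), W5S (dark blue squares), C6 (orange triangles) and W5NS (light blue diamonds). For the WIP, PLETHORA and RGF genes the W5NS points lie by the W5S points and the C6 points by the w5C6 points, whereas for MC9, RNS3, BGLU34 and BGLU35 the C6 points lie by the W5S points.

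Markers of the CEI and of young ground tissue were not past the fold. Of 9 such genes, 7 reached 10 FPKM and 0 were past the fold, although all 9 had a higher level in w5C6, with a median log2 ratio of 0.85. The list includes CYCD6;1, whose promoter drives the reporter that w5C6 was sorted on. It also includes AN3, which the study reported as enriched in the CEI from these same data. The direction of these genes is therefore not independent of the sort or of the choice. SCR, the GRAS factor of endodermis, CEI and QC, was at 47.6 FPKM in w5C6 and 48.9 in C6, against 17.4 in W5NS and 30.9 in W5S (0.61). MGP and JKD are its zinc finger partners. MGP was at 30.3 FPKM in w5C6 and 52.7 in C6, against 7.76 in W5NS and 9.91 in W5S (1.52). JKD was at 40.8 FPKM in w5C6 and 32.4 in C6, against 23.4 in W5NS and 20.3 in W5S (0.97). AN3, a coactivator of growth-regulating factors, was at 161 FPKM in w5C6 and 184 in C6, against 26.8 in W5NS and 89.0 in W5S (0.85). AT1G09750, an aspartyl protease gene used as a cortex marker, was past the fold at 14.9 FPKM in w5C6 and 5.10 in C6, against 5.89 in W5NS and 1.22 in W5S (2.84). Genes of the Casparian strip, the wall barrier of the maturing endodermis, were low in w5C6. CASP1, which builds the membrane domain of the strip, was at 13.3 FPKM in w5C6 and 389 in C6, against 91.7 in W5NS and 53.1 in W5S (-1.92). CASP2 was at 5.79 FPKM in w5C6 and 174 in C6, against 35.1 in W5NS and 31.8 in W5S (-2.27). Of 11 genes of differentiating endodermis, 7 reached 10 FPKM and CASP2 alone was past the fold, toward W5S, while the highest level of most of them was in C6.

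Genes of growing root hairs were mostly higher in w5C6. The list of genes annotated as root hair specific was added after values were seen. Of its 15 members, 13 reached 10 FPKM, 11 of them past the fold toward w5C6 and 0 toward W5S, and the median over all 15 was 3.11. RHS19 had the highest level, with 499 FPKM in w5C6 and 398 in C6, against 145 in W5NS and 57.2 in W5S (3.11). RHS13, an extensin-type wall protein gene, was at 335 FPKM in w5C6 and 186 in C6, against 65.2 in W5NS and 21.0 in W5S (3.93). RSL2 and RSL4 are basic helix-loop-helix factors that drive hair growth. RSL2 was at 29.5 FPKM in w5C6 and 16.0 in C6, against 8.15 in W5NS and 2.27 in W5S (3.22). RSL4 was at 86.1 FPKM in w5C6 and 47.9 in C6, against 22.1 in W5NS and 19.8 in W5S (2.07). COW1, a phosphatidylinositol transfer protein of the hair tip that was chosen after its values were seen, was at 75.5 FPKM in w5C6 and 62.4 in C6, against 17.9 in W5NS and 6.61 in W5S (3.33). In each of these genes C6 was the second highest population and W5S the lowest. Genes that set the fate of epidermal cells before hairs form did not follow this order. RHD6, the factor above RSL2 and RSL4, was at 22.7 FPKM in w5C6 and 6.07 in C6, against 24.2 in W5NS and 37.7 in W5S (-0.71). MYB66, known as WER, a factor of hairless cells, was at 14.5 FPKM in w5C6 and 14.9 in C6, against 38.6 in W5NS and 33.5 in W5S (-1.15). CPC, its mobile counterpart, was at 36.4 FPKM in w5C6 and 45.0 in C6, against 28.2 in W5NS and 26.2 in W5S (0.46). Of the 9 epidermis and hair markers listed, 7 reached 10 FPKM and 0 were past the fold in either direction.

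Wall genes of elongating cells had some of the highest w5C6 levels. Extensins and proline-rich proteins are structural glycoproteins of the wall. Of 158 such genes, 76 reached 10 FPKM, 23 of them past the fold toward w5C6 and 0 toward W5S. EXT3 was at 1631 FPKM in w5C6 and 1313 in C6, against 734 in W5NS and 175 in W5S (3.21). PRP3, a gene of root hair walls, was at 909 FPKM in w5C6 and 584 in C6, against 251 in W5NS and 167 in W5S (2.44). ELP, an extensin-like protein, was at 1119 FPKM in w5C6 and 494 in C6, against 366 in W5NS and 62.1 in W5S (4.15). LRX1, a leucine-rich repeat extensin of root hairs, was at 178 FPKM in w5C6 and 106 in C6, against 54.6 in W5NS and 21.7 in W5S (2.98). Their sum over the list was 15622 FPKM in w5C6 and 5349 in W5S. XTH enzymes cut and rejoin xyloglucan. Of 32 XTH genes, 20 reached 10 FPKM and 6 of them were past the fold, all toward w5C6. XTH14 was at 564 FPKM in w5C6 and 519 in C6, against 181 in W5NS and 62.6 in W5S (3.15). XTH13 was at 187 FPKM in w5C6 and 125 in C6, against 38.02 in W5NS and 7.19 in W5S (4.52). Of 69 class III peroxidase genes, 31 reached 10 FPKM and 10 of them were past the fold, again all toward w5C6. Among these, AT1G30870 was at 433 FPKM in w5C6 and 283 in C6, against 109.6 in W5NS and 63.7 in W5S (2.74). Arabinogalactan proteins were split. Of 49 genes of this and the fasciclin-like kind, 36 reached 10 FPKM, 7 of them past the fold toward w5C6 and 2 toward W5S. AGP24, the locus with the highest w5C6 level of all those past the fold, was at 3601 FPKM in w5C6 and 2059 in C6, against 940.1 in W5NS and 809 in W5S (2.15). AGP30, given above, was on the other side. Of 35 expansin genes, 15 reached 10 FPKM and EXPA11 alone was past the fold. EXPA11 was at 44.4 FPKM in w5C6 and 30.2 in C6, against 25.6 in W5NS and 4.26 in W5S (3.11). EXPA7, the expansin of root hairs, was at 195 FPKM in w5C6 and 93.0 in C6, against 48.4 in W5NS and 61.0 in W5S (1.66).

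Some channels and carriers for water, nutrients and metals were past the fold toward w5C6. Of 33 aquaporin genes, 20 reached 10 FPKM, 4 of them past the fold toward w5C6 and 0 toward W5S, with a median of 1.16. Of these 4, the 3 of the vacuole membrane had the highest levels. TIP2;2 was at 878 FPKM in w5C6 and 572 in C6, against 277 in W5NS and 153 in W5S (2.51). GAMMA-TIP was at 653 FPKM in w5C6 and 409 in C6, against 183 in W5NS and 85.4 in W5S (2.92). TIP2;3 was at 302 FPKM in w5C6 and 301 in C6, against 118 in W5NS and 29.8 in W5S (3.30). W5S had the lowest level of each. Of 57 amino acid carrier genes, 12 reached 10 FPKM, 4 of them past the fold toward w5C6 and 1 toward W5S. AAP1, an importer of amino acids, was at 41.0 FPKM in w5C6 and 75.8 in C6, against 16.4 in W5NS and 1.19 in W5S (4.26). UMAMIT34, an amino acid exporter family member, was at 27.8 FPKM in w5C6 and 16.2 in C6, against 14.5 in W5NS and 0.841 in W5S (3.97). UMAMIT8 of the same family was on the other side, at 19.9 FPKM in W5S and 14.0 in W5NS, against 3.22 in C6 and 3.46 in w5C6 (-2.23). Iron genes, a list added after values were seen, also divided. IRT2, an iron transporter, was at 39.3 FPKM in w5C6 and 30.8 in C6, against 9.13 in W5NS and 0.962 in W5S (4.36). bHLH39, a factor of the iron deficiency response, was at 20.17 FPKM in w5C6 and 4.25 in C6, against 2.50 in W5NS and 0.201 in W5S (4.14). FRO3, a ferric reductase of mitochondria, was at 34.1 FPKM in w5C6 and 31.7 in C6, against 5.01 in W5NS and 3.94 in W5S (2.83). FRO2, the ferric reductase of the root surface, was at 34.8 FPKM in W5S and 15.5 in W5NS, against 16.5 in C6 and 6.75 in w5C6 (-2.21).

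Phenylpropanoid enzymes, which feed lignin, suberin and flavonoids, had higher levels in w5C6. Of 21 lignin and suberin genes, 12 reached 10 FPKM, and 4 of them were past the fold toward w5C6 and 0 toward W5S. PAL2, an ammonia-lyase at the entry of the pathway, was at 84.1 FPKM in w5C6 and 64.1 in C6, against 45.0 in W5NS and 19.7 in W5S (2.04). 4CL1, the ligase that activates coumarate, was at 106 FPKM in w5C6 and 147 in C6, against 47.8 in W5NS and 19.8 in W5S (2.36). OMT1, a methyltransferase of lignin precursors, was at 293 FPKM in w5C6 and 299 in C6, against 119.5 in W5NS and 71.6 in W5S (2.02). C6 equalled or exceeded w5C6 for 4CL1 and OMT1. The suberin enzymes CYP86A1, CYP86B1 and GPAT5 were under 1 FPKM in every population. In flavonoid synthesis, TT7, the flavonoid hydroxylase, was at 54.5 FPKM in w5C6 and 11.2 in C6, against 13.3 in W5NS and 1.33 in W5S (4.58), and here w5C6 stood above C6. TT4, chalcone synthase, was high in both, at 1034 FPKM in w5C6 and 451 in W5S (1.20). UGT78D1, a flavonol glycosyltransferase, was past the fold in the other direction, at 14.9 FPKM in W5S and 12.4 in W5NS, against 1.93 in C6 and 1.93 in w5C6 (-2.45).

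Transcription factors past the fold toward w5C6 came from several families. WOX7, the closest relative of WOX5 and a regulator of lateral roots, was at 29.1 FPKM in w5C6 and 28.0 in C6, against 5.70 in W5NS and 0.107 in W5S (4.77), the inverse of WOX5 in this pair of populations. GRF4, a growth-regulating factor of the kind that AN3 binds, was at 13.9 FPKM in w5C6 and 24.5 in C6, against 4.40 in W5NS and 0.820 in W5S (3.04). ERF71, a hypoxia-responsive factor, was at 15.3 FPKM in w5C6 and 11.9 in C6, against 12.5 in W5NS and 0.0928 in W5S (3.90), so that W5S stood far below the others. AT3G17100, a DNA-binding factor chosen after its values were seen, was at 46.6 FPKM in w5C6 and 45.6 in C6, against 0.495 in W5NS and 0.0460 in W5S (5.51). Of 115 MYB genes, 27 reached 10 FPKM and 7 of them were past the fold, all toward w5C6. MYB4, a repressor of phenylpropanoid genes, was at 54.2 FPKM in w5C6 and 12.2 in C6, against 19.7 in W5NS and 11.4 in W5S (2.15). MYB15, an activator of lignin genes in defence, was at 28.0 FPKM in w5C6 and 7.23 in C6, against 3.58 in W5NS and 1.80 in W5S (3.37). Of 65 WRKY genes, 32 reached 10 FPKM and 4 of them were past the fold, all toward w5C6. They were led by WRKY70, a defence regulator, at 43.1 FPKM in w5C6 and 21.5 in C6, against 19.96 in W5NS and 5.73 in W5S (2.71). NAC and GRAS genes were not on that side alone. Of 90 NAC genes, 27 reached 10 FPKM, with 3 past the fold toward W5S against 1 toward w5C6. Of 24 GRAS genes, 13 reached 10 FPKM and LAS alone was past the fold, toward W5S.

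Precursors of small RNAs were detected unevenly, and for such short loci the values are uncertain. Of 24 miRNA loci at 10 FPKM or more, 11 were past the fold toward w5C6 and 2 toward W5S. MIR166a, a precursor of the microRNA that cleaves class III homeodomain-leucine zipper messages, was at 50.9 FPKM in w5C6 and 10.2 in C6, against 19.0 in W5NS and 10.5 in W5S (2.17). MIR166e was at 41.8 FPKM in w5C6, 10.3 in C6 and 4.56 in W5NS and was listed at 0 in W5S. HB-8, of the gene class that miR166 targets, was higher in W5S as given above, and PHB, of the same class, was at 8.42 FPKM in w5C6 and 6.80 in W5S. MIR396b and TAS3 were chosen after their values were seen. MIR396b, whose microRNA targets growth-regulating factors, was at 19.8 FPKM in w5C6 and 2.28 in C6, against 5.78 in W5NS and 2.201 in W5S (2.70), and GRF4 of that family was also higher in w5C6. TAS3, the precursor of small RNAs against ARF messages, was at 32.7 FPKM in w5C6 and 16.8 in C6, against 5.92 in W5NS and 2.43 in W5S (3.30).

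Photosynthesis genes gave the largest ratios of the comparison. All 38 of the 42 photosystem and light-harvesting genes that reached 10 FPKM were past the fold toward w5C6, with a median of 5.52 over the 42. RBCS1A, a small subunit of Rubisco, was at 1651 FPKM in w5C6 and 4.51 in C6, against 0 in W5NS and 0.169 in W5S (10.46). CAB1, a chlorophyll-binding antenna protein, was at 720.3 FPKM in w5C6 and 5.55 in C6, against 1.24 in W5NS and 0.0388 in W5S (9.44). GAPA, a dehydrogenase of the Calvin cycle, was at 127 FPKM in w5C6 and 0.815 in C6, against 0.563 in W5NS and 0.101 in W5S (6.87). The high level was thus in w5C6 and not in the other 3 populations, C6 included. Of 20 Calvin cycle genes 15, of 13 photorespiration genes 8, and of 21 chlorophyll synthesis genes 5 were past the fold toward w5C6, and 0 toward W5S. In these lists 20, 12 and 15 members, in that order, reached 10 FPKM. GOX1, the glycolate oxidase of photorespiration, was at 91.5 FPKM in w5C6 and 0.541 in C6, against 0.399 in W5NS and 0.205 in W5S (6.26). GUN4, a regulator of magnesium chelatase, was at 20.8 FPKM in w5C6 and 0.462 in C6, against 0.379 in W5NS and 0.0487 in W5S (4.38). RBCS and CAB genes have near-identical copies, so their single values are uncertain while the group total is less so. Genes encoded in the chloroplast differed less: 19 of the 83 at 10 FPKM or more were past the fold toward w5C6, and their summed level was 20587 FPKM in w5C6, 8716 in W5S, 10344 in C6 and 9822 in W5NS.

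The 10 shoot and leaf markers, most of which are photosynthesis genes themselves, summed to 3304 FPKM in w5C6, 34.3 in W5S, 28.4 in C6 and 36.6 in W5NS. The shoot meristem gene STM, at 26.5 FPKM in W5S and 20.19 in W5NS, made up most of the sums of W5S and W5NS. Of these 10, 9 were past the fold toward w5C6 and STM was past it toward W5S. FBA2, a chloroplast aldolase, was listed at 0 in W5S and RBCS1A in W5NS. The part of green tissue or of single libraries in the values of w5C6 was not tested. Without the chloroplast-encoded, photosystem, Calvin cycle and photorespiration genes, 638 loci were past the fold toward w5C6 and 211 toward W5S.

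**Figure D3:**
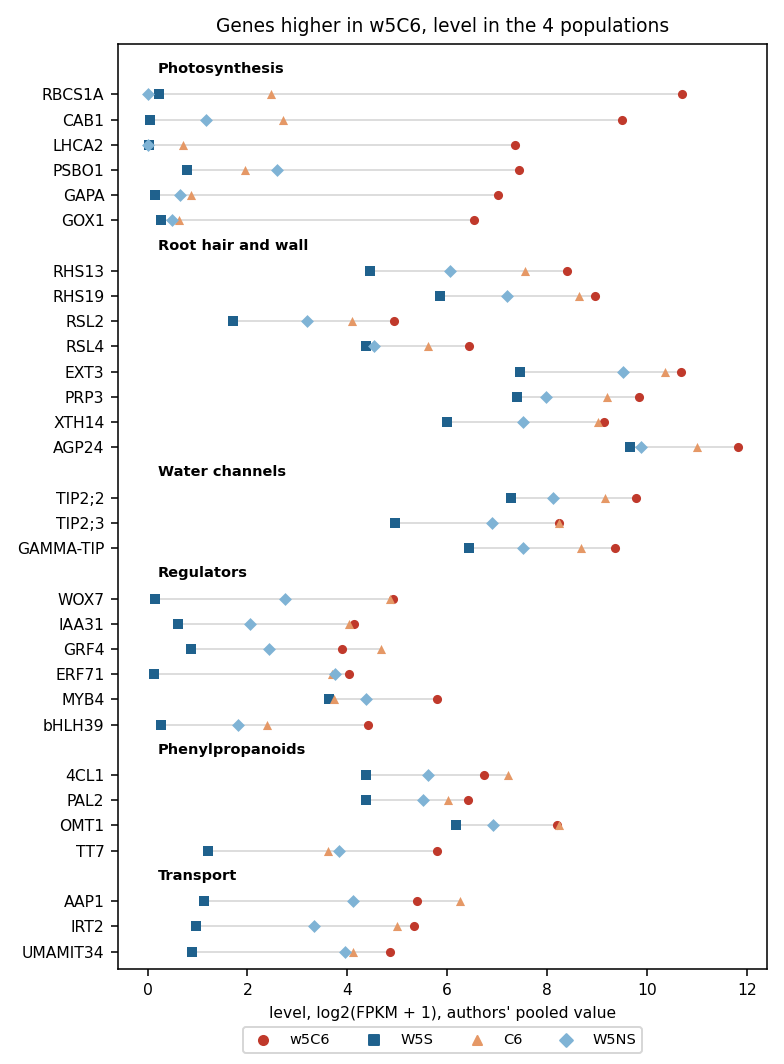
Level of 30 genes discussed as higher in w5C6, as log2(FPKM + 1) of the authors' combined value, in w5C6 (red circles), W5S (dark blue squares), C6 (orange triangles) and W5NS (light blue diamonds). In the photosynthesis genes w5C6 stands apart from the other 3 populations, whereas in the root hair, wall and water channel genes C6 lies next to w5C6 and W5S has the lowest point.

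The lists of mitosis, DNA replication, histones, ribosomal proteins, D-type cyclins and CDK inhibitors had no member past the fold. Of 19 mitosis genes, 17 reached 10 FPKM and 0 were past the fold. CDC20.1, an activator of the anaphase complex, was at 36.5 FPKM in w5C6 and 24.0 in C6, against 29.7 in W5NS and 10.2 in W5S (1.74). CDKB1;1, a mitotic kinase, was at 16.0 FPKM in w5C6 and 21.2 in C6, against 24.8 in W5NS and 30.9 in W5S (-0.91). The counts past the fold were also 0 for 12 replication genes, 33 histone genes, 6 D-type cyclins, 5 CDK inhibitors and 191 ribosomal protein genes at 10 FPKM or more. CYCD6;1, a D-type cyclin with a ratio above 4-fold as given above, was under this level and so not counted. The medians of these lists over all their members lay between 0.36 for replication and 1.15 for the inhibitors. Hormone lists other than auxin gave single genes. GA3OX1, which makes active gibberellin, was at 11.3 FPKM in w5C6 and 8.51 in C6, against 10.6 in W5NS and 1.502 in W5S (2.30). IPT5, which opens cytokinin synthesis, was at 13.9 FPKM in w5C6 and 9.36 in C6, against 3.53 in W5NS and 2.16 in W5S (2.24). Of 12 brassinosteroid genes 9 reached 10 FPKM and 0 were past the fold.

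Stress genes that protoplasting and sorting can induce were present in all populations. Of 17 wound, heat and touch genes, 16 reached 10 FPKM, 3 of them past the fold toward w5C6 and 0 toward W5S. JAZ1, a wound-induced repressor of jasmonate response, was at 485 FPKM in w5C6 and 721 in C6, against 476 in W5NS and 474 in W5S (0.03). WRKY33 was at 128 FPKM in w5C6 and 167 in C6, against 88.7 in W5NS and 130.1 in W5S (-0.02). AT5G12020, a class II small heat shock protein, was at 69.7 FPKM in w5C6 and 312 in C6, against 43.8 in W5NS and 15.6 in W5S (2.09), with C6 far above both. RBOHD, the NADPH oxidase of stress signalling, was at 16.3 FPKM in w5C6 and 7.96 in C6, against 5.85 in W5NS and 1.02 in W5S (3.10). The list summed to 2167 FPKM in w5C6, 1664 in W5S, 3609 in C6 and 1689 in W5NS, and the part of handling in the comparison was not tested.

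**Figure D4:**
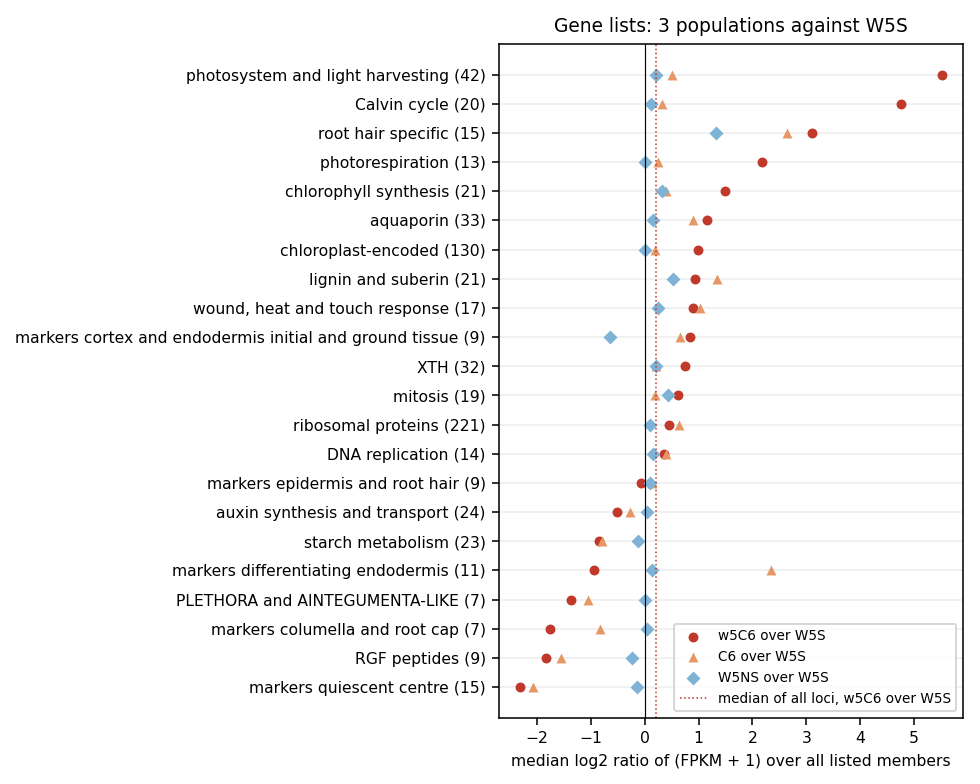
Median log2 ratio of (FPKM + 1) over all members of 22 gene lists, with the number of members in parentheses, for w5C6 (red circles), C6 (orange triangles) and W5NS (light blue diamonds), each over W5S; the dotted line is the median of w5C6 over W5S across all loci, 0.21. Photosystem genes lie at 5.52 for w5C6 and at 0.51 for C6, and QC markers at -2.31 and -2.08, against -0.14 for W5NS. The ratios share the W5S values and are given side by side only, and the QC marker list shares genes with the RGF and PLETHORA lists. The QC marker list includes WOX5 and the CEI list CYCD6;1, the genes of the 2 sorting reporters.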

How the data were processed

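RNA of FACS-sorted protoplasts (4 libraries per population) was extracted with a Qiagen RNeasy Micro kit and amplified with a SMART-Seq low-input kit. Per the submitters' processing notes and the study's methods, reads were cleaned with fastq-mcf, aligned with HISAT2 and quantified with Cufflinks through TuxNet, with versions and genome build not given in the sources used here. The authors deposited 1 FPKM value per locus and population, combined over its libraries; the unit was inferred from Cufflinks and the range of the values, since the table header names none. The 12 further columns that the authors deposited, 6 with log2 fold changes and 6 with q-values of their own comparisons, were not used.

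The table held 33201 loci, of which 282 named several gene IDs and were counted once, since their genes cannot be told apart. Of 32919 loci with a single ID, 32218 were matched to the RefSeq TAIR10.1 gene table, used for names and kinds of locus only. The log2 ratio used a pseudocount of 1 FPKM, and the fold rule (4-fold, at least 10 FPKM in the higher population) describes and does not test. The genes named were taken from the 15 highest and 15 lowest ratios and the 10 highest levels past the fold in each population. They were also taken from members of gene lists past the fold, up to 4 further members of each list, and 10 genes that the study's questions name. Not every gene picked by this rule is reported. Other list members are named to account for their list, and genes outside the rule are marked in the text as chosen after their values were seen. Members and lists were chosen with earlier results of these data known. Of the 68 lists, 20 were listed by gene and 48 by family or annotation; those for homeodomain-leucine zipper III, MIR166, WIP, WOX, sulfur response, late embryogenesis, extensin and proline-rich, lipid transfer, root hair specific, iron, flavonoid, chlorophyll synthesis, SAUR, CAP, prenyl chain, PLETHORA and cell death genes were added after values were seen. With no counts, depth and counting error are unknown. Alternatives were the pseudocount, the minimum, the fold, the scaling and the kinds of locus. Python 3.11.15, pandas 2.3.3, NumPy 2.4.6 and matplotlib 3.10.9 were used.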

Additional observations from a re-analysis of the deposited data

How the results depend on the processing

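The counts past the fold, 718 toward w5C6 and 211 toward W5S, depended on the thresholds by construction, and more loci were past it toward w5C6 under every alternative run. A pseudocount of 5 FPKM gave 330 and 107 loci, a minimum of 30 FPKM 318 and 125, a 2-fold rule 2015 and 1213, and an 8-fold rule 319 and 67, while no minimum gave 1381 toward w5C6 and 288 toward W5S. Scaling both populations to the same sum over nuclear loci multiplied W5S by 1.12 (0.17 on the log2 scale) and gave 629 and 303, a share toward w5C6 of 67.5% against 77.3%. The other alternatives stayed within 1.5 times of both counts: a pseudocount of 0.1 FPKM, loci above 0 in all 4 populations, a median ratio of 0 and loci with a single ID. So did 2 chosen after seeing the data: protein-coding nuclear loci alone (630 and 194) and the omission of the chloroplast-encoded, photosystem, Calvin cycle and photorespiration lists. Of the 68 list medians, 15 changed sign under some alternative, 14 with a minimum level and 2 with a scaling, all of them at most 0.501 in size on the log2 scale as reported. They include the epidermis, stele, glucosinolate, ARF, Aux/IAA, NAC and WOX lists. Of 542 loci picked by the naming rule, none with a ratio past 1.5-fold changed direction. The alternatives run on single loci could not have reversed such a ratio. A change of pseudocount keeps the sign, and the larger scaling moved ratios by at most 0.17 on the log2 scale. Of the values of these loci under the alternatives, 285 differed from the reported ratio by more than 1.5-fold and 1883 did not.

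No paired analysis was possible because the table holds 1 combined value per population; for the same reason leaving out each replicate in turn could not be run. The spread between libraries, the depth and any single library's part in a value are therefore unknown, values under 1 FPKM set the largest ratios through the pseudocount, and short or near-identical loci are uncertain.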
